A study of Mus musculus with 4 samples.

Results

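The receptors described here carry the signals of serotonin, dopamine, noradrenaline and adrenaline, acetylcholine, histamine, opioid peptides and cannabinoids. They were chosen by gene name from the array's own annotation (Htr, Drd, Adr, Chrm, Chrn, Hrh, Opr and Cnr genes), which gave 61 of the 34816 gene names on the array. Of these names, 59 are receptors or receptor subunits and 2 are kinases, Grk2 and Grk3, which the array lists under their old names Adrbk1 and Adrbk2 and which were taken in by their spelling. The 61 names are read by 83 of the 55681 distinct probes. The tissue was corticohippocampal tissue of male C57BL/6 mice aged 8 weeks, an inbred wild-type strain. Lysate was kept for 3 h with beads that carried CPEB3 IgG or control IgG, and the precipitated RNA was hybridised to 1-colour arrays, 2 for CPEB3 IgG and 2 for control IgG. The labels give neither the number of animals behind each array nor the source of the control IgG, and no array of input lysate was analysed here. Every value is therefore relative to the RNA that control IgG brought down, and p-values measure the spread between arrays alone, which may be technical.

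CPEB3 belongs to the proteins that bind cytoplasmic polyadenylation elements; in neurons it attaches to uridine-rich RNA and regulates the translation of the mRNAs it holds. Most of the receptors are G protein-coupled: the transmitter binds outside the cell, the receptor activates a G protein inside it, and kinases and arrestins then switch the receptor off. The exceptions are the nicotinic acetylcholine receptor and the serotonin receptor of the Htr3 genes, which are ion channels built from several subunits. In cortex and hippocampus these receptors tune excitability and transmitter release, while most of the neurons that make the monoamines lie in the brainstem and hypothalamus and send only their axons there.

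Each probe is a 60-base oligonucleotide of the sense sequence. The stretches below are the 30 bases richest in T of the probes for the members whose calls held in every processing setting run. Runs of at least 4 T, the DNA form of a uridine run, are in capitals, and positions are on mm9 as the files give them. Runs that do not lie whole within the stretch are not marked. The Adra1d probe holds such a run.
Adra2c (chr5:35624272-35624301, + strand): cttcctatgacctgaaaaaggcatctgtct
Adra2a (chr19:54123393-54123422, + strand): gcacttgttgctcgtgacggtggaTTTTTT
Adra1d (chr2:131371206-131371235, - strand): ttggatgcccgccatacaaatctgttgttt
Hrh3 (chr2:179834263-179834292, - strand): aatgctttgcctcgtcctgtgtacttacct
Htr7 (chr19:36033345-36033374, - strand): ttcgctagagtgaacgtatatacttatatt
Oprl1 (chr2:181455627-181455656, + strand): ctgcctctggggtaatgaaggagttctcat
Grk2 (chr19:4286049-4286078, - strand): gtttctttgccgaTTTTTgaatgtgaTTTT

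Genes whose probes gave unequal answers are shown next, because for them the choice of probe sets the result. The number after each name is the first base of the probe on its transcript.
Adra1b, base 2028 (chr11:43589081-43589110, - strand): cttaagtctctctctcttctctctctgtat
Adra1b, base 2948 (chr11:43588149-43588178, - strand): acaatgtaatagcaatgTTTTTTcTTTTTT
Hrh1, base 1340 (chr6:114430763-114430792, + strand): tgagtacttgccggcggatcagtgagacat
Hrh1, base 2993 (chr6:114432428-114432457, + strand): gataTTTTTgcttacctaaaacatgacatt
Hrh1, base 3706 (chr6:114433148-114433177, + strand): tgctcttgtagaagatccaggtatggcttt
Grk3, base 1436 (chr5:113389653-113389682, - strand): agttcaagttataggtaagtaaattacttt
Grk3, base 6312 (chr5:113339691-113339720, - strand): atctggcttcttctggtaacagagatggat

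The arrays were alike in brightness, with a 75th percentile of processed signal of 507 and 353 units with CPEB3 IgG and of 443 and 425 units with control IgG, and 70.0% and 68.0% against 73.4% and 73.2% of probes well above background. Over the 27586 array entries tested below, each read at 1 probe, log2 levels correlated at r = 0.99 between the CPEB3 IgG arrays and at r = 0.98 between the control IgG arrays. Across the groups they correlated at r = 0.92 to 0.94 (genes are not independent replicates). All 4 arrays lay on 1 slide, the groups at separate positions of it, so position and antibody cannot be told apart. Of 7 neuron markers, all measured, Rbfox3 alone passed the test used below, at a log2 difference of 0.70 (0.63 to 0.76 and not passing when any 1 array was left out, and -0.84 with the mean of its probes), and the summed marker signal was 311 to 322 times the array's 75th percentile with CPEB3 IgG and 284 to 294 times with control IgG. Among 5 astrocyte markers Slc1a3 was higher (3.16) and Aldh1l1 lower (-3.03; -1.22 with the mean of its probes), with sums of 52.1 to 87.1 and 36.6 to 46.5; among 4 microglia markers Aif1 was lower (-2.34), with sums of 13.6 to 19.4 and 23.3 to 26.5. None of the 4 oligodendrocyte, 3 endothelial, 4 cortex and hippocampus or 3 muscle markers passed. The sums were 95.5 to 118, 4.93 to 6.37, 12.4 to 13.4 and 0.93 to 1.25 with CPEB3 IgG, against 110 to 140, 4.37 to 5.29, 11.5 to 11.7 and 1.34 to 1.71 with control IgG. The part of cell makeup in the results was not tested. In precipitated RNA, fewer cells of a type, less RNA per cell and less RNA brought down by the antibody cannot be told apart.

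Transmitter receptor mRNAs were more often higher than lower in the CPEB3 precipitate. A gene counts as measured where 2 or more of the 4 arrays read a probe well above background, its level is the log2 signal of its brightest probe minus the array's 75th percentile, and it passed where limma's adjusted p (Benjamini-Hochberg, over 27586 array entries) was below 0.05. Of 50 receptors measured, 19 were higher with CPEB3 IgG, 1 was lower and 30 did not pass; over all entries, 19.2% were higher and 20.3% were lower. The share of receptors that were higher was thus 38.0%, and the share that were lower 2.0%. The median log2 difference was 0.37 over the receptors, against -0.14 over all entries. With median or spike-in scaling every difference moved up by 0.29 or 0.72, so the signs of smaller values depend on the scaling. Both scalings shift every gene alike. They therefore cannot change the gap between the median over the receptors and the 2 kinases and that of all entries, 0.56. This gap was 0.36 with normexp background correction, 0.45 with no filter on dim probes and 0.57 with the filter on all 4 arrays. It was 0.46 to 0.66 when 1 array was left out. Both kinases were also higher. In all 22 genes that passed, the arrays of the groups did not overlap, and the same held for several that did not pass, such as Adra2b, Chrm2 and Chrna6. The share over all entries was not counted, so this adds nothing to the test.

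The higher calls fell mostly on G protein-coupled receptors: 18 of 38 measured were higher and 1 was lower, with a median log2 difference of 0.70. Of the 12 measured subunits of ion channels, 1 was higher and none was lower, with a median of -0.08 (positive with median or spike-in scaling). A test of this difference between the classes was not made. By transmitter, 7 of 12 serotonin, 2 of 5 dopamine, 4 of 8 adrenergic, 1 of 4 muscarinic, 1 of 11 nicotinic, 2 of 4 histamine, 1 of 4 opioid and 1 of 2 cannabinoid receptor genes were higher. The names not measured were Htr2b, Htr3b, Adra1a, Chrm5, Chrna3, Chrna5, Chrnb1, Chrnb3 and Chrnd.

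**Figure D1:**
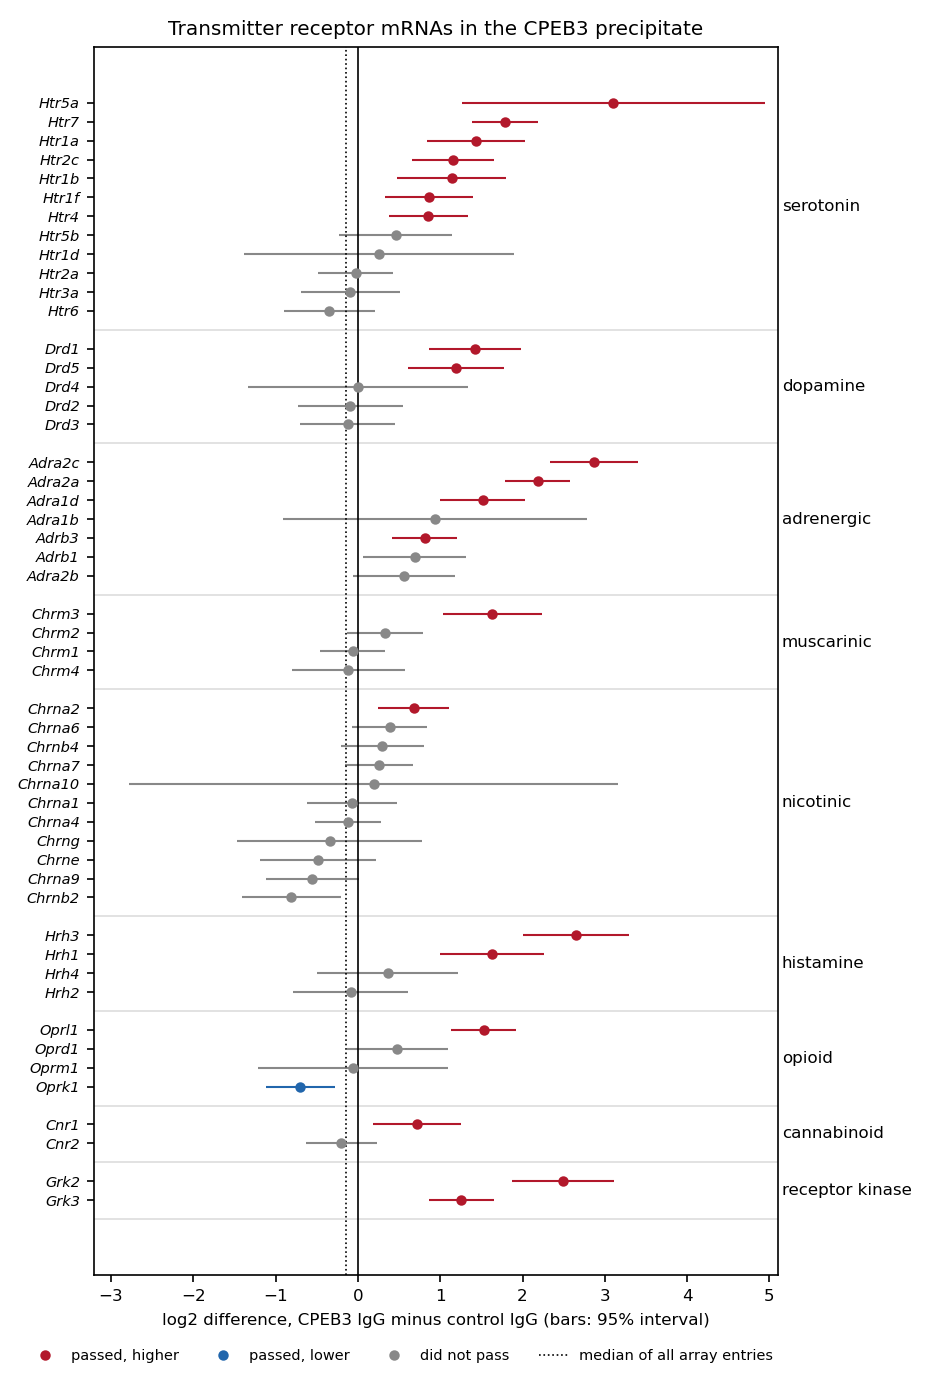
Log2 difference of the measured receptor genes, 1 of them not drawn, and of the 2 kinases, CPEB3 IgG minus control IgG (horizontal axis; n = 2 arrays each), grouped by transmitter; bars are 95% intervals of the limma fit, colour marks the test at adjusted p 0.05, and the dotted line is the median of all array entries, -0.14. The 21 genes that were higher lie at 0.68 to 3.10, most of them serotonin and adrenergic receptors, and Oprk1 is the 1 that was lower.

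Serotonin receptors made up the longest run of higher genes: Htr5a, Htr7, Htr1a, Htr2c, Htr1b, Htr1f and Htr4 passed, and the family's median log2 difference was 0.86. Htr7, a receptor that raises cyclic AMP, had levels of 1.77 and 1.66 with CPEB3 IgG, against -0.07 and -0.08 with control IgG. The arrays of each group lay close together and far from the other group, and the log2 difference was 1.79 ± 0.15 (SE; 3.46-fold; adjusted p 0.00398). Htr5a, an inhibitory receptor found mainly in the brain, had -1.55 and -1.70 with CPEB3 IgG, against -5.71 and -3.75 with control IgG. Its control signal was well above background on 1 of the 2 arrays, and the log2 difference, 3.10 ± 0.68, had a 95% interval of 1.27 to 4.94 (adjusted p 0.0281). It was 1.10 with normexp background correction (adjusted p 0.00328), 2.12 without control IgG array 1 and 4.09 without control IgG array 2. Htr1a, the inhibitory receptor of hippocampal pyramidal cells and of serotonin neurons themselves, stood at -2.19 and -1.88 with CPEB3 IgG, against -3.66 and -3.27 with control IgG, a log2 difference of 1.43 ± 0.22 (0.62 with normexp, adjusted p 0.0259). Htr2c, which acts through phospholipase C, had 2.11 and 1.77 with CPEB3 IgG, against 0.77 and 0.79 with control IgG, and differed by 1.16 ± 0.18. In both genes the lowest CPEB3 IgG array was clear of the highest control array.

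The presynaptic receptor Htr1b had levels of -3.27 and -2.68 with CPEB3 IgG, against -4.08 and -4.15 with control IgG, and Htr1f, of the same inhibitory subfamily, had -1.03 and -1.24 with CPEB3 IgG, against -1.83 and -2.18 with control IgG. Htr4, which like Htr7 raises cyclic AMP, had -0.21 and -0.12 with CPEB3 IgG, against -1.17 and -0.87 with control IgG. Their log2 differences were 1.14 ± 0.25, 0.87 ± 0.20 and 0.86 ± 0.18, with adjusted p of 0.0272, 0.0308 and 0.0244. With normexp Htr1b stood at 0.33 and did not pass (adjusted p 0.216), and with no filter on dim probes neither Htr1b (adjusted p 0.0502) nor Htr1f (0.0573) passed. The 5 serotonin receptors that did not pass spanned Htr5b at 0.46 to Htr6 at -0.35. Htr6 had -2.11 and -1.82 with CPEB3 IgG, against -1.78 and -1.46 with control IgG, and its second probe had -4.12 and -3.53 with CPEB3 IgG, against -3.45 and -2.68 with control IgG: the control arrays were the higher ones at both, with adjusted p of 0.249 at the first. Between these lay Htr1d, Htr2a, the main receptor of serotonergic hallucinogens, and the channel subunit Htr3a, whose groups overlapped. Htr7 passed in all 13 other settings run, leave-one-out fits included. Leaving out CPEB3 IgG array 1 ended the calls of Htr5a, Htr1a, Htr2c, Htr1f and Htr4 (log2 differences 0.76 to 3.03, adjusted p 0.0517 to 0.136), and leaving out array 2 those of Htr5a, Htr1a, Htr1b, Htr1f and Htr4 (0.81 to 3.18, adjusted p 0.0645 to 0.113). Without control IgG array 1, Htr1b (1.18, adjusted p 0.0564) and Htr4 (0.71, 0.0879) did not pass, and without control array 2, Htr1b (1.10, 0.0626) and Htr1f (0.70, 0.0960).

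Both dopamine receptors of the D1 class, which raise cyclic AMP, were higher, and none of the 3 D2-class receptors, which lower it, passed. Drd1 had levels of 2.03 and 2.41 with CPEB3 IgG, against 0.68 and 0.91 with control IgG, and Drd5 had -2.78 and -2.30 with CPEB3 IgG, against -3.76 and -3.71 with control IgG. Their log2 differences were 1.43 ± 0.21 (2.69-fold, adjusted p 0.0103) and 1.19 ± 0.22 (2.29-fold, adjusted p 0.0174). Without CPEB3 IgG array 2 they kept 1.24 and 0.96 but did not pass (adjusted p 0.0516 and 0.0609), and with normexp Drd5 stood at 0.46 and did not pass (adjusted p 0.0945). Drd4 had -2.76 and -2.41 with CPEB3 IgG, against -3.27 and -1.91 with control IgG, so both CPEB3 IgG arrays lay between the control arrays. Drd2 and Drd3 differed by -0.09 and -0.12, with overlapping groups and 95% intervals of -0.73 to 0.54 and -0.70 to 0.45. The difference between the D1 and D2 classes was not tested.

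Adrenergic receptors held the members with the smallest adjusted p, Adra2c and Adra2a. Both code for inhibitory receptors that sit on noradrenergic terminals and on the neurons they contact. Adra2c had levels of 4.36 and 4.54 with CPEB3 IgG, against 1.75 and 1.40 with control IgG, and Adra2a had 3.26 and 3.21 with CPEB3 IgG, against 1.07 and 1.03 with control IgG. In both genes the gap between the groups was several times the gap between arrays of 1 group. Adra2c differed by 2.87 ± 0.20 (7.32-fold; adjusted p 0.00384) and ranked 165th from the top among all 27586 entries; Adra2a differed by 2.18 ± 0.15 (4.54-fold; adjusted p 0.00384). The third gene of the subfamily, Adra2b, did not pass at 0.56 (95% interval -0.06 to 1.18; adjusted p 0.125), though both CPEB3 IgG arrays were above both control arrays.

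Among the alpha-1 receptors, which act through phospholipase C, Adra1d had -0.12 and 0.13 with CPEB3 IgG, against -1.65 and -1.37 with control IgG, a log2 difference of 1.52 ± 0.19 (adjusted p 0.00765). Adra1b had 0.61 and 1.66 with CPEB3 IgG, against -0.64 and 1.03 with control IgG: array 2 was the higher one in both groups, the groups overlapped, and the difference of 0.94 did not pass (adjusted p 0.332; it passed at 1.78 without control IgG array 2, at 1.66 with spike-in scaling and with the replicate block, adjusted p 0.0383). Of the beta receptors, Adrb3 was higher, with -0.48 and -0.42 with CPEB3 IgG, against -1.28 and -1.25 with control IgG, although its difference was only 0.81 ± 0.15 (adjusted p 0.0169). The other Adrb3 probe differed by 0.19 and did not pass. Adrb1, the main beta receptor of cortex, had 3.02 and 3.29 with CPEB3 IgG, against 2.71 and 2.23 with control IgG, and its difference of 0.69 did not pass at an adjusted p of 0.0813; it passed with normexp (0.66, adjusted p 0.0382) and with median scaling (0.98, adjusted p 0.0385). The calls of Adra2c, Adra2a and Adra1d held in all 13 other settings run. Adrb3 did not pass when any 1 of the 4 arrays was left out (log2 difference 0.78 to 0.84, adjusted p 0.0571 to 0.0803), nor with the mean of its probes (0.50, adjusted p 0.108).

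Of the muscarinic acetylcholine receptors, Chrm3 alone passed. Chrm3, which acts through phospholipase C, had levels of 0.05 and 0.38 with CPEB3 IgG, against -1.61 and -1.23 with control IgG, so the groups were well apart. Its log2 difference was 1.63 ± 0.22 (3.10-fold, adjusted p 0.00887), and 1.47 without CPEB3 IgG array 2, where the adjusted p was 0.0525. Chrm1, the main muscarinic receptor of forebrain pyramidal neurons, had 0.74 and 0.78 with CPEB3 IgG, against 0.78 and 0.86 with control IgG. Its arrays were nearly level, the difference was -0.06 (positive with median or spike-in scaling), and the 95% interval was -0.46 to 0.33. Chrm2 and Chrm4, the inhibitory muscarinic receptors, differed by 0.33 and -0.12, with adjusted p of 0.197 and 0.747.

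Of the nicotinic subunits 1 of 11 measured was higher, and the median log2 difference was -0.07 (positive with median or spike-in scaling). Chrna2, a subunit of a small set of hippocampal interneurons, was the higher one, at 1.02 and 1.13 with CPEB3 IgG, against 0.31 and 0.49 with control IgG, a difference of 0.68 ± 0.16 (adjusted p 0.0345). It did not pass when any 1 of the 4 arrays was left out (0.58 to 0.77, adjusted p 0.0705 to 0.135), nor with quantile scaling (0.60, adjusted p 0.0506), spike-in scaling (1.39, 0.0712) or no filter on dim probes (0.0653). Chrna4 and Chrnb2 together form the most common nicotinic receptor of the brain. Chrna4 had 0.15 and 0.20 with CPEB3 IgG, against 0.24 and 0.35 with control IgG, and the 95% interval of its difference was -0.52 to 0.28. The other Chrna4 probe differed by 0.34 and did not pass. Chrnb2 had 0.95 and 0.44 with CPEB3 IgG, against 1.52 and 1.49 with control IgG, a difference of -0.81 ± 0.22 that missed the threshold at an adjusted p of 0.0501. It passed with normexp, quantile scaling, a stricter filter and the replicate block (adjusted p 0.0191 to 0.0401). With spike-in scaling the difference of Chrnb2 was only -0.09 (adjusted p 0.934). Its probe is printed beside that of its partner.
Chrna4 (chr2:180753123-180753152, - strand): ttcgtgttattaatattcttccctgcctct
Chrnb2 (chr3:89557890-89557919, - strand): tgggtatgttgtcactgttgaaaggtcaaa

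Chrna7, which forms receptors of a single kind of subunit in hippocampus, had -1.81 and -1.71 with CPEB3 IgG, against -2.06 and -1.97 with control IgG at its brightest probe. A second probe, printed in 10 spots on each array, gave -3.83 and -3.44 with CPEB3 IgG, against -4.25 and -4.24 with control IgG, with spot-to-spot SDs of 0.23 to 0.28. Both CPEB3 IgG arrays lay above both control arrays at each probe, but neither probe passed, at 0.26 (adjusted p 0.246) and 0.61 (adjusted p 0.0800). Chrna6 and Chrnb4 differed by 0.38 and 0.30 and did not pass. Chrna10 varied more between replicates than between groups, with -2.43 and -4.39 with CPEB3 IgG, against -2.31 and -4.88 with control IgG. Of the 5 subunits of the muscle receptor, Chrna1, Chrne and Chrng were measured, at -0.07, -0.48 and -0.34, and none passed. A second Chrna1 probe, well above background on 1 array of each group, differed by 1.34 and did not pass. Chrna9, known from the hair cells of the inner ear, differed by -0.55 ± 0.21 (adjusted p 0.104; it passed at -1.25 with the mean of its probes, adjusted p 0.0260). Its second probe, on another transcript, was lower in the fit over all probes, with -5.12 and -4.08 with CPEB3 IgG, against -2.48 and -2.81 with control IgG, a difference of -1.95 ± 0.40 (adjusted p 0.0258); 1 of the 2 CPEB3 IgG arrays was well above background there.

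Histamine receptors split into a pair that was higher and a pair that did not pass. Hrh3, the inhibitory receptor on histaminergic and other terminals, had levels of 6.08 and 5.55 with CPEB3 IgG, against 3.26 and 3.08 with control IgG. The gap between the groups was wider than that between replicates, and the log2 difference was 2.65 ± 0.24 (6.26-fold, 95% interval 2.00 to 3.29; adjusted p 0.00425), rank 290 among all entries and passing in all 13 other settings. Hrh1, which acts through phospholipase C and is blocked by sedating antihistamines, had 1.40 and 0.85 with CPEB3 IgG, against -0.48 and -0.53 with control IgG, and differed by 1.63 ± 0.23 (adjusted p 0.0101). Hrh2 and Hrh4 overlapped between the groups, at -0.09 (positive with quantile, median or spike-in scaling) and 0.36.

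Opioid receptors went both ways. Oprl1, the receptor of nociceptin, had levels of 4.24 and 4.30 with CPEB3 IgG, against 2.79 and 2.70 with control IgG; replicates lay close together and the log2 difference was 1.53 ± 0.15 (2.88-fold, adjusted p 0.00472), a call that held in all 13 other settings, with 0.91 for the mean of its probes. Oprk1, the receptor of dynorphin, was the 1 receptor that was lower, with -3.64 and -3.78 with CPEB3 IgG, against -3.07 and -2.95 with control IgG. Its difference of -0.70 ± 0.16 (1.62-fold lower; adjusted p 0.0294) did not pass when any 1 array was left out (-0.77 to -0.63, adjusted p 0.0781 to 0.120), nor with no filter on dim probes (adjusted p 0.0575). It was -0.24 with normexp, -0.38 with quantile and -0.41 with median scaling, and 0.02 with spike-in scaling, and did not pass in any of these. Oprd1, the delta receptor, differed by 0.48 and did not pass (adjusted p 0.166). Oprm1, the receptor of morphine, had 4.39 and 4.84 with CPEB3 IgG, against 4.13 and 5.23 with control IgG at its brightest probe, so its control arrays lay on either side of the CPEB3 IgG arrays. Its other 2 kept probes had -1.36 and -1.28 with CPEB3 IgG, against -1.48 and -1.27 with control IgG, and -4.57 and -4.25 with CPEB3 IgG, against -4.41 and -4.05 with control IgG; the groups overlapped at all 3. The stretches of the opioid probes show that the stretch of the brightest Oprm1 probe ends in a CA repeat.
Oprm1, base 2581 (chr10:3308362-3308391, - strand): ataaccctaatagatgctaaacacacacac
Oprk1 (chr1:5592855-5592884, + strand): agccagtatgactagtcgtggaaatgtctt
Oprd1 (chr4:131666648-131666677, - strand): ccaaccccaattaaaagaaattatttattt

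Cnr1, the presynaptic cannabinoid receptor of the brain, had levels of 3.79 and 3.59 with CPEB3 IgG, against 2.79 and 3.14 with control IgG, and its difference of 0.72 ± 0.20 passed narrowly (adjusted p 0.0487). In the fit over all probes the same probe missed the threshold (adjusted p 0.0566), and no fit that left out 1 array passed (0.54 to 0.90, adjusted p 0.0520 to 0.188). Nor did it pass with quantile scaling (0.61, adjusted p 0.0739), spike-in scaling (1.44, 0.0604), no filter on dim probes (0.0848), the replicate block (0.0579) or the mean of its probes (-0.24). Its other probe, on a different transcript, differed by -1.20. Cnr2, known mainly from immune cells, had 2.24 and 2.04 with CPEB3 IgG, against 2.34 and 2.33 with control IgG, and differed by -0.20 (positive with median or spike-in scaling; adjusted p 0.370). Both kinases phosphorylate active receptors and so prepare them for arrestin. Grk2 had 7.45 and 7.97 with CPEB3 IgG, against 5.26 and 5.16 with control IgG, a difference of 2.49 ± 0.23 (5.63-fold, adjusted p 0.00439) that passed in all 13 other settings. Grk3 had 2.78 and 2.87 with CPEB3 IgG, against 1.55 and 1.58 with control IgG at a probe printed in 10 spots, a difference of 1.26 ± 0.15 (2.39-fold, adjusted p 0.00656). Another probe of Grk3 differed by -1.41, and the mean of its probes by -0.07, which did not pass.

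**Figure D2:**
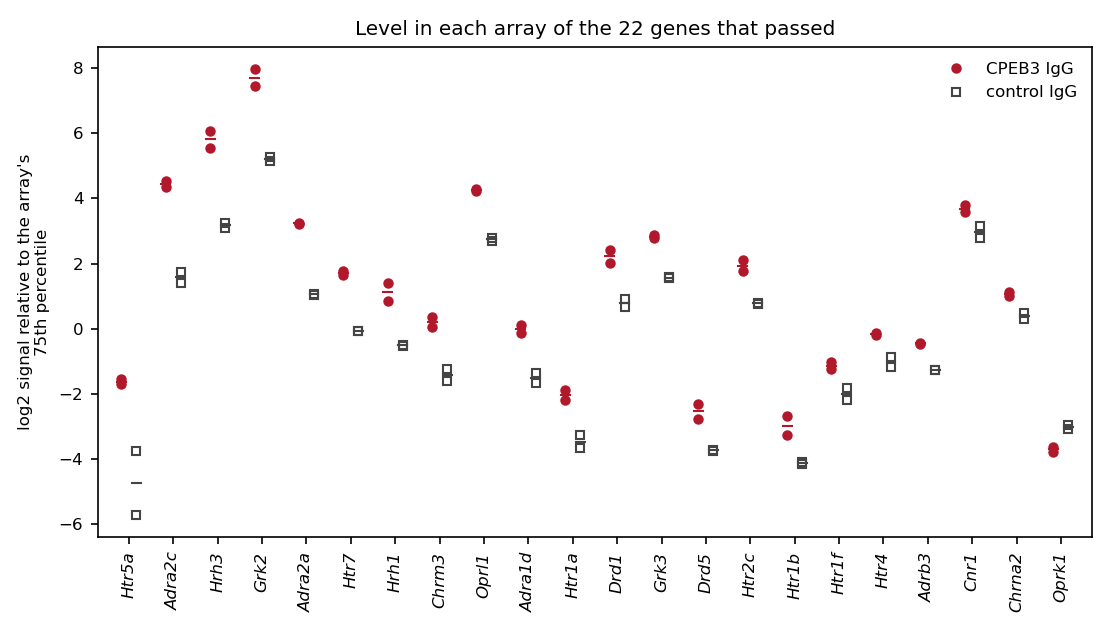
Log2 level of the brightest probe, relative to the 75th percentile of the array, for the 22 genes that passed; filled circles are the 2 CPEB3 IgG arrays, open squares the 2 control IgG arrays, short lines their means, and genes run from the largest positive difference to Oprk1, the negative one. The groups are apart in each gene, and the wide spread of the control arrays of Htr5a, -5.71 and -3.75, stands out; heights are not comparable between genes, since each is read by its own probe.

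Probes of 1 gene did not always agree, which matters because a gene was read at its brightest probe. Over all probes, 15.8% were higher and 18.9% lower with CPEB3 IgG; of the 71 member probes kept, 20 were higher and 2 lower, with a median of 0.29 against -0.19 over all 40608. In 19 pairs of the brightest and another probe of the same gene, from 16 genes, the within-array ratio of the 2 probes was compared between the groups; this ratio does not depend on the scaling of the array. Of these pairs 3 were unequal, beside 14.9% of 13022 pairs over all genes, a similar share. They were pairs of Grk3, Hrh1 and Adra1b. In Grk3 the brightest probe differed by 1.26 and the other, on a different transcript, by -1.41, where levels were -4.66 and -3.50 with CPEB3 IgG, against -2.62 and -2.73 with control IgG (unequal by 2.66 ± 0.42, adjusted p 0.0356). In Hrh1 the probe at base 2993 differed by 1.63, while those at bases 1340 and 3706 of the same transcript differed by -0.40 and -0.16. Only the pair with base 1340 passed (2.04 ± 0.33, adjusted p 0.0362; 1.79 ± 0.41, adjusted p 0.0641 for base 3706). In Adra1b the probe at base 2028 differed by 0.94 and that at base 2948 by -0.41 (unequal by 1.35 ± 0.22, adjusted p 0.0362). Array 2 was the higher one in both groups at the second Adra1b probe too, with -1.14 and -0.17 with CPEB3 IgG, against -0.91 and 0.42 with control IgG. No pair of any gene passed in a fit that left out 1 array, where the 3 ratios were 1.17 to 3.20 with adjusted p of 0.0695 to 0.157.

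In 8 pairs, of 7 genes, both probes lay on 1 transcript with the brightest nearer the 3′ end. Both Htr2c pairs, which share their brightest probe, are among them. In all 8 the brightest probe had the more positive difference, by a median of 0.91. Over all genes this held for 2519 of 3210 such pairs (78.5%), by a median of 0.54. With the brightest nearer the 5′ end it held for 2 of 3 member pairs, by a median of 1.35. Over all 13022 pairs, whatever their places, it held for 60.5%. A part of the position of the probe in this was not tested. Oprl1 is among the 8 pairs, with 1.53 at base 2924 and 0.29 at base 1291, where levels were -4.70 and -3.93 with CPEB3 IgG, against -4.75 and -4.45 with control IgG. In Htr2c the probe at base 4584 differed by 1.16, that at base 2008 by 0.35 and that at base 1076 by -1.03. Adra1d gave 1.52 at base 2229 and 0.49 at base 1706, and Adrb1 0.69 at base 2353 and 0.05 at base 380. The dimmer Oprl1 probe was well above background on 1 of the 2 control IgG arrays. None of these 8 pairs passed singly, apart from the Hrh1 pair given above. The brightest probe had been chosen on all 4 arrays, a choice that by itself favours a more positive difference at that probe. Chosen on the control IgG arrays alone, an alternative added after the data were seen, it gave the same 21 higher and 1 lower calls. The direction of the pairs was not counted again with that choice. With the mean of a gene's probes, Hrh1 (0.36), Htr2c (0.16) and Adrb3 (0.50) no longer passed, and Cnr1 (-0.24) and Grk3 (-0.07) changed sign.

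**Figure D3:**
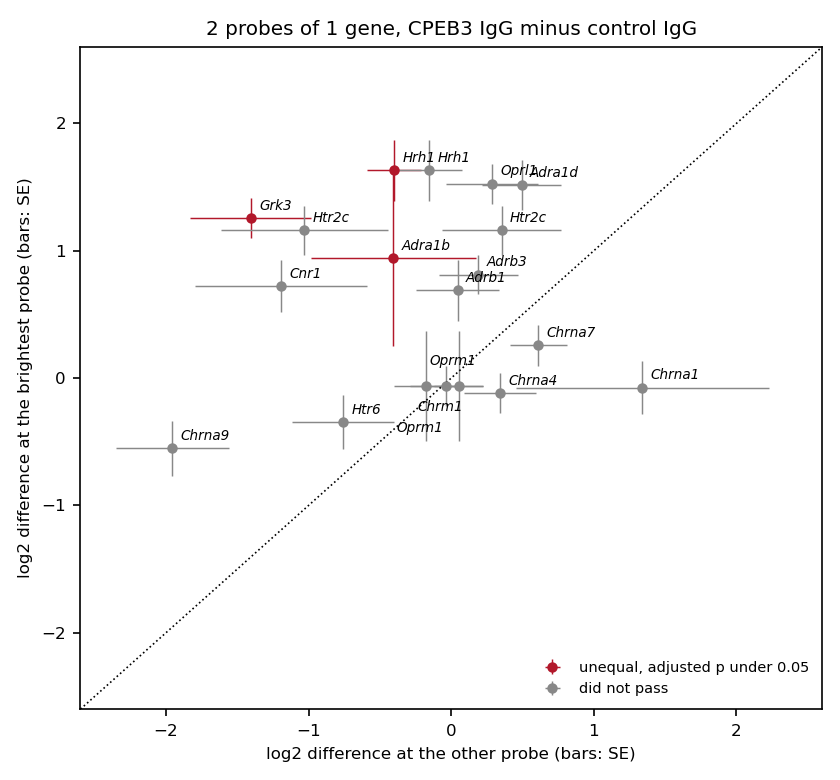
Log2 difference (CPEB3 IgG minus control IgG) at the brightest probe of a gene, vertical axis, against another probe of the same gene, horizontal axis, for the 19 member pairs; bars are SE of the fit over all probes and the dotted line marks equal differences. The 3 pairs that passed the test of unequal difference, of Grk3, Hrh1 and Adra1b, are in red and lie above the line.

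Uridine runs were counted in the probes, and no test of the shares was made. A run of at least 4 T lay in 25 of the 71 member probes kept (35.2%), against 33.0% of all kept probes on a RefSeq transcript. Among the brightest probes of the 21 members that were higher, 11 held such a run (52.4%). Those of Adra2a and Grk2, shown above, are among them, as is that of Adra1d, whose run is not marked there. Among the other 31 measured members it was 8 (25.8%). Over all RefSeq entries, the members included, the shares were 51.3% of those that were higher and 29.0% of the others. The letters TTTTAT and TTTTAAT, 2 common forms of the cytoplasmic polyadenylation element, were searched on the sense strand alone; both contain a run of 4 T. They were in 0 of the 71 member probes and in 5.34% of RefSeq probes. These windows are the 60 bases of a probe and not whole transcripts. A stop codon in all 3 forward frames, which coding sequence in any frame lacks, was found in 18 member probes, of which 4 were higher (median log2 difference 0.27), and not in 53, of which 16 were higher (0.30). Over all RefSeq probes 28.8% and 20.5% were higher in these classes.

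Of 65 genes that make, move, degrade or relay the same transmitters 61 were measured, 17 were higher (27.9%) and 10 were lower (16.4%), with a median log2 difference of 0.17. These counts include Grk2 and Grk3, both higher and already counted among the members. Over all entries 19.2% were higher and 20.3% lower, so the share that was lower is near that of all genes, and the lists by role, of 6 to 18 measured genes, are described by their counts alone. Of 8 enzymes of synthesis measured, 4 were lower and 1 was higher. Gch1, which makes the cofactor of the monoamine hydroxylases, had levels of -3.70 and -4.37 with CPEB3 IgG, against -1.97 and -2.33 with control IgG, and Ddc, the decarboxylase shared by serotonin and dopamine synthesis, had -0.90 and -1.32 with CPEB3 IgG, against 0.47 and 0.38 with control IgG. Both were lower, by 3.69-fold and 2.88-fold (adjusted p 0.0123 and 0.00861), and neither passed with spike-in scaling (-1.17 and -0.81); with normexp Gch1 stood at -0.83 and passed. The sum of the 4 measured markers of monoamine and acetylcholine neurons (Th, Dbh, Slc6a3 and Chat) was 3.02 to 4.28 with CPEB3 IgG and 4.35 to 16.5 with control IgG, and Tph2 and Slc6a4, which mark serotonin neurons, were not measured. Th, Dbh and Chat are also on the list of synthesis enzymes, so this sum is not a measure separate from that list. The part of cell makeup in the values of the synthesis enzymes was not tested. Of 6 measured transporters 0 passed limma's test, and 0 had an unadjusted p under 0.05; the smallest p was that of Slc18a2, the vesicular monoamine transporter, at 0.59 (adjusted p 0.194), which passed with the replicate block (adjusted p 0.0439).

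Degrading enzymes had 3 of 10 higher and none lower. Bche, butyrylcholinesterase, had 0.49 and 0.58 with CPEB3 IgG, against -1.10 and -1.16 with control IgG, and Abhd6, a hydrolase of the endocannabinoid 2-arachidonoylglycerol, had 2.03 and 2.08 with CPEB3 IgG, against 1.09 and 1.17 with control IgG. Their differences were 1.66 ± 0.15 and 0.92 ± 0.15 (adjusted p 0.00424 and 0.0130). Of 7 ligand precursors and endocannabinoid-making enzymes 3 were higher. Napepld, which makes anandamide and related lipids, had 2.92 and 2.80 with CPEB3 IgG, against 0.59 and 0.64 with control IgG, a difference of 2.25 ± 0.15. Pnoc, the precursor of nociceptin, had 0.62 and 0.58 with CPEB3 IgG, against -0.98 and -0.77 with control IgG, and differed by 1.48 ± 0.16, so the ligand and its receptor Oprl1 were both higher. Of 12 G protein alpha subunits 3 were higher and 1 lower: Gna11, which couples to phospholipase C, and Gna12 differed by 1.24 ± 0.17 and 1.15 ± 0.22, and Gnas, the subunit that stimulates adenylyl cyclase, was the lower one at -1.10 ± 0.15, with 6.08 and 6.00 with CPEB3 IgG, against 7.19 and 7.09 with control IgG. Gnas did not pass with the mean of its probes (-0.31), with spike-in scaling (-0.38) or without CPEB3 IgG array 1 (-1.14, adjusted p 0.0529) or 2 (-1.05, 0.0551). Gna11 did not pass without CPEB3 IgG array 2 (1.12, adjusted p 0.0505), nor Gna12 without array 1 (1.07, 0.102) or 2 (1.23, 0.0770). Abhd6 did not pass with the mean of its probes (0.47) or without CPEB3 IgG array 1 or 2 or control IgG array 1 (0.88 to 0.95, adjusted p 0.0523 to 0.0680).

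Of 18 genes that regulate receptors 7 were higher and 5 lower. Besides Grk2, the largest difference was that of Tmem35a, a chaperone that nicotinic receptors need for assembly, at 3.81 and 3.95 with CPEB3 IgG, against 1.50 and 1.71 with control IgG, a difference of 2.27 ± 0.17 (adjusted p 0.00384). Rgs9, which shortens G protein signals of dopamine and opioid receptors, had 2.54 and 2.69 with CPEB3 IgG, against 4.18 and 4.72 with control IgG, and was lower by 3.57-fold (adjusted p 0.00801; 0.0567 without CPEB3 IgG array 1, at -1.76, and 0.169 with spike-in scaling, at -1.12). Both arrestins were lower: they bind receptors after the kinases have marked them, and are named here after their values were seen. Arrb2 had -0.39 and -0.27 with CPEB3 IgG, against 0.87 and 1.38 with control IgG, and Arrb1 had 3.79 and 3.55 with CPEB3 IgG, against 4.55 and 4.43 with control IgG. Their differences were -1.46 ± 0.23 and -0.82 ± 0.17 (adjusted p 0.0124 and 0.0242), beside 2.49 for Grk2 and 1.26 for Grk3. The value of Grk3 holds for its brightest probe alone. Its other probe differed by -1.41 and the mean of its probes by -0.07. With spike-in scaling the arrestins stood at -0.74 and -0.10 and did not pass, nor did they pass without CPEB3 IgG array 1 (-1.40 and -0.94) or 2 (-1.52 and -0.70). Arrb1 also did not pass without control IgG array 1 (-0.76) or 2 (-0.88), or with median scaling (-0.53).

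**Figure D4:**
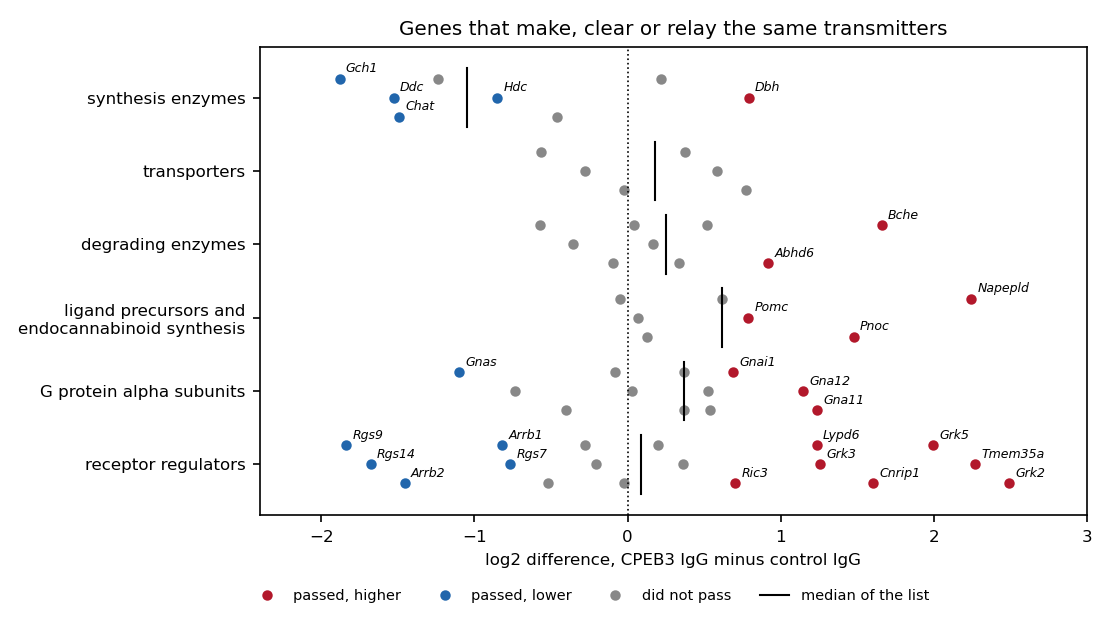
Log2 difference (CPEB3 IgG minus control IgG) of the 61 measured genes that make, clear or relay the same transmitters, by role, 1 of them not drawn; each point is 1 gene, coloured by the test at adjusted p 0.05, with names for those that passed and a vertical line at the median of each list. Synthesis enzymes lie mostly below 0, and the regulators are spread on both sides, with Grk2, Tmem35a and Grk5 at the right and Rgs9, Rgs14 and Arrb2 at the left.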

How the data were processed

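Labels and file headers were the only sources for the study's own steps. Per the labels' protocols, precipitated RNA was extracted with phenol and chloroform, amplified from 0.2 ug and labelled with Cy3. Per the file headers, the deposited tables hold spot intensities of 1 colour (Feature Extraction 10.5.1.1), given as processed signals that were background-subtracted and spatially detrended within each array and not scaled between arrays. Mean and local background intensities from the same deposited tables served 1 alternative. No test by the authors is given in these sources.

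Control spots and 123 to 223 outlier spots per array were left out, 0 spots were saturated, and 63 probes had no value. The log2 values were computed from the deposited intensities by averaging spots of a probe and subtracting the array's 75th percentile. Probes were kept (40608) where 2 or more of the 4 arrays read them well above background. Symbols were updated through RefSeq accessions (table of GRCm38.p6, names only; 27509 probes matched, 2017 renamed, and 169 more took the current name of a matched probe with the same file name). Genes were read at their brightest probe (27586 entries, 8356 with several probes). Tests used limma 3.58.1 under R 4.3.3 (eBayes after lmFit, unblocked) with Benjamini-Hochberg adjustment over all entries, all probes or all probe pairs; ± is SE, and intervals are 95%. The number of arrays limits the precision. Replicate arrays shared 0 identical spot values. The fits were tested on simulated data.

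The members and the lists of partner and marker genes were chosen with earlier results of these data known. Values are given for each member that passed, each with several kept probes, the extremes of each family, and in each partner list the 2 largest differences that passed or else the smallest p; other names were chosen after their values were seen. Some genes and 1 probe sequence are not reported here; the genes still enter the counts and medians. A planned split of probes by match to RefSeq proteins was not made, since no protein table was used here; stop codons in the probe replaced it, after the data were seen. Alternatives were normexp (offset 50), quantile, median and spike-in scaling, no filter on dim probes or one on all 4 arrays, averaging the probes of a gene, a replicate block and each array left out. Same-numbered arrays deviated together with a correlation of 0.39, which with 2 numbers does not settle a pairing.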

Additional observations from a re-analysis of the deposited data

How the results depend on the processing

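Counts below cover the receptors and the 2 kinases (21 higher and 1 lower). The higher count was 16 to 24 in the settings that kept all 4 arrays and 10 to 17 when 1 array was left out, with 10 without CPEB3 IgG array 2 and 13 without array 1, where a group has 1 sample that is assumed to vary like the other group; the lower count was then 0 each time. It was also 0 with median scaling, spike-in scaling and no filter, and 2 with the replicate block, with averaged probes and with the filter on all arrays. Of the 22 genes that passed, 7 (Htr7, Adra2c, Adra2a, Adra1d, Hrh3, Oprl1 and Grk2) kept their call in all 13 other settings, and 15 lost it in at least 1. Over all entries the lower count was 3126 with median and 691 with spike-in scaling, against 5587, so that higher calls made up 68.5% and 88.0% of calls, against 48.7%. Without 1 array, 2492 to 4326 entries were higher and 2020 to 4461 lower. Among partner genes (17 higher, 10 lower), lower calls were 6 with median and 0 with spike-in scaling, and without 1 array 9 to 13 were higher and 3 to 9 lower. Unequal member pairs (3) were 6 with normexp, 5 with the filter on all arrays, and 0 with no filter, the replicate block or 1 array left out; over all genes (1943) they were 0 with no filter and 0 without 1 array, and 1298 with the block. The replicate block moved no count of higher calls by over 1.5 times, and it ended the call of Cnr1 (adjusted p 0.0579) and added Adra1b (0.0383) and Chrnb2 (0.0401); among the partner genes named it ended that of Ric3 (0.0561) and added Slc18a2 (0.0439). A slide block was not run, since all arrays shared 1 slide. Differences that changed sign, with the cause not tested, were mostly those of genes that had not passed. Spike-in scaling gave Htr6 0.37, Drd3 0.59, Chrm1 0.65, Chrm4 0.60, Chrna1 0.64, Chrna4 0.60, Chrna9 0.16, Hrh2 0.63, Oprm1 0.65, Oprk1 0.017 and Cnr2 0.52. Median scaling gave Drd3 0.17, Chrm1 0.23, Chrm4 0.17, Chrna1 0.22, Chrna4 0.17, Hrh2 0.20, Oprm1 0.23 and Cnr2 0.091, and quantile scaling gave Drd3 0.15, Chrm4 0.10, Chrna1 0.29 and Hrh2 0.24. The mean of a gene's probes gave Chrna1 0.63, Chrna4 0.11, Cnr1 -0.24, Grk3 -0.074, Ric3 -0.12 and Rbfox3 -0.84. When 1 array was left out, signs varied for Drd3 (-0.35 to 0.11), Chrm4 (-0.41 to 0.18), Chrna1 (-0.23 to 0.077), Hrh2 (-0.35 to 0.17) and Oprm1 (-0.61 to 0.49).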

Other observations

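Further partners of these receptors passed the test and were named after their values were seen. Cnrip1, a protein that binds the tail of the CB1 cannabinoid receptor, had levels of 5.47 and 5.16 with CPEB3 IgG, against 3.71 and 3.70 with control IgG, a log2 difference of 1.61 ± 0.18 (adjusted p 0.00577). Grk5, a further receptor kinase, had 0.99 and 0.91 with CPEB3 IgG, against -0.89 and -1.20 with control IgG and differed by 2.00 ± 0.18 (adjusted p 0.00430). Both calls held in all 13 other settings run. Lypd6, which binds nicotinic receptors outside the cell, had 1.51 and 1.70 with CPEB3 IgG, against 0.38 and 0.36 with control IgG, and its difference of 1.24 ± 0.16 (adjusted p 0.00785) was lost only with the mean of its probes. Ric3, a chaperone of nicotinic receptors, had -1.78 and -2.12 with CPEB3 IgG, against -2.74 and -2.58 with control IgG; its difference of 0.70 ± 0.19 passed at an adjusted p of 0.0480 and was lost in 8 of 13 other settings and reversed in 1. Rgs14, a regulator of G protein signals known from hippocampal area CA2, had 2.13 and 1.92 with CPEB3 IgG, against 3.66 and 3.75 with control IgG and was lower by 3.20-fold (adjusted p 0.00472), and Rgs7, of the same family as Rgs9, had 0.50 and 0.71 with CPEB3 IgG, against 1.21 and 1.54 with control IgG and was lower by 1.70-fold (adjusted p 0.0406). With spike-in scaling neither passed (-0.96 for Rgs14 and -0.05 for Rgs7). Rgs14 passed in the other 12 settings, while Rgs7 also did not pass with median scaling (-0.48), with no filter on dim probes (adjusted p 0.0728) or when any 1 array was left out (-0.93 to -0.60, adjusted p 0.0513 to 0.165).

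Among the transmitter genes themselves, Pomc, the precursor of beta-endorphin, had 0.96 and 0.80 with CPEB3 IgG, against 0.20 and -0.01 with control IgG (log2 difference 0.79 ± 0.17, adjusted p 0.0267). Chat, which makes acetylcholine, was lower with -0.59 and -0.83 with CPEB3 IgG, against 1.22 and 0.35 with control IgG (-1.49 ± 0.34, adjusted p 0.0299), as was Hdc, which makes histamine, with -2.09 and -2.22 with CPEB3 IgG, against -1.15 and -1.46 with control IgG (-0.85 ± 0.18, adjusted p 0.0271). Dbh, which makes noradrenaline, was higher with -1.82 and -2.29 with CPEB3 IgG, against -2.85 and -2.84 with control IgG (0.79 ± 0.22, adjusted p 0.0476). Each of these 4 lost its call with no filter on dim probes (adjusted p 0.0518 to 0.0823). The same held when CPEB3 IgG array 1 or 2 was left out. Pomc and Dbh also lost it without control IgG array 1 (0.89 and 0.79) or 2 (0.68 and 0.79), and Hdc without control array 1 (-0.69). Dbh stood at 0.38 with normexp, Hdc at -0.65 with quantile and -0.56 with median scaling, Chat at -1.20 with median scaling, and Hdc and Chat at -0.14 and -0.78 with spike-in scaling, and none of these passed.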
